A study of Mus musculus with 9 samples.

Results

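Fat cells surround the kidney and lie in its sinus, so a piece of kidney cortex can carry RNA of adipocytes. This account follows 8 genes that are characteristic of adipocytes, chosen by name: Adipoq, Cfd, Plin1, Cidec, Fabp4, Car3, Lep and the brown fat gene Ucp1. A probe set with a single gene symbol was found for 7 of the 8, of 22180 genes with such a probe set in all. Cfd, which encodes the complement protease adipsin, had 0 probe sets carrying its name or identifier in the annotation used, and it was not analysed here. The other 7 all passed the filter on low values, among 17740 genes that did.

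The samples were 9 Affymetrix arrays of kidney cortex RNA from male mice aged 20 weeks on the C57BLKS/J background, 3 arrays per group. The group called db/db+TSF held db/db mice dosed into the stomach for 12 weeks with TSF, the herbal mixture Tang-shen Formula, at 2.4 g/kg/day. The db/db group received saline, and each of these db/db groups counted 9 mice per the labels. The db/m mice were lean controls with no treatment given in the labels. Mice called db/db carry the leptin receptor mutation on both copies, lack leptin signalling and become obese and diabetic, whereas db/m mice carry it on a single copy. The labels call the arrays of a group biological replicates and do not say whether an array came from a single mouse.

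An adipocyte stores triglyceride in a large lipid droplet and secretes hormones into the blood. Adipoq encodes the hormone adiponectin and Lep encodes leptin, the hormone that the db/db receptor cannot read. Plin1 (perilipin 1) and Cidec (also called Fsp27) encode coat proteins of the lipid droplet. Fabp4 carries fatty acids inside adipocytes and is also made by capillary endothelium and macrophages. Car3 encodes carbonic anhydrase III, which is abundant in adipocytes, skeletal muscle and liver. Ucp1 encodes the uncoupling protein that lets brown fat make heat. Genes of this kind are switched on in adipocytes by PPARG and C/EBP transcription factors.

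The arrays had median intensities between 10.3 and 11.2, and values below are log2(intensity + 1) unless said otherwise. The proximal tubule gene Slc34a1, a phosphate transporter, lay between 12.12 and 12.27 in all 9 arrays, near the top of the scale. No detection calls were used, so a level near the array medians of 3.50 to 3.61 cannot be told from background. In whole tissue, fewer cells of a type and less RNA per cell cannot be told apart. No scan date or other batch was given in the labels.

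The members fell into bright and dim genes. Fabp4 averaged 8.94 over the 9 arrays, above 94.6% of the 22180 genes, and Car3 averaged 7.89. Cidec averaged 3.78, Plin1 3.64 and Lep 3.61, close to the array medians. Ucp1 averaged 2.97 and Adipoq 2.93, below the array medians. Adiponectin mRNA is among the most abundant of adipocytes, and its probe set stayed between 2.73 and 3.24 in all 9 arrays. Levels of different probe sets are not on a common scale, since each probe binds with its own strength.

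**Figure D1:**
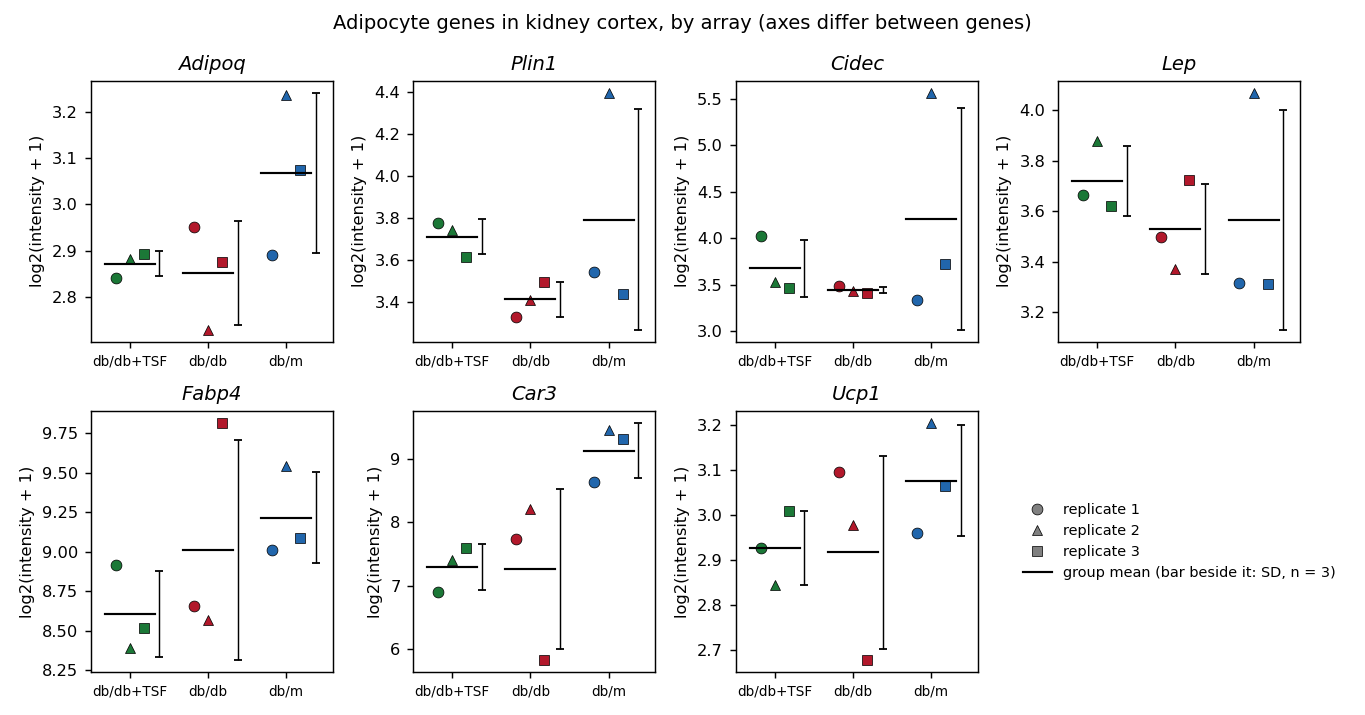
Log2(intensity + 1) of the 7 measured adipocyte genes in each of the 9 arrays, with the groups db/db+TSF, db/db and db/m from left to right, the group mean as a line and the SD (n = 3) as a bar beside it. The db/m replicate 2 array (triangle) is the highest point for 6 of the 7 genes and sits at 5.56 for Cidec, while the Car3 points of db/m (8.64 to 9.45) lie above all other arrays (5.83 to 8.21).

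The most visible feature of these genes was a single control array. The array of db/m replicate 2 had the highest value of the 9 arrays for 6 of the 7 members (85.7%), all except Fabp4. Over all 17740 genes it was the highest array for 10.3%, and the share of the other arrays ran between 8.08% and 20%. The members share these arrays and were chosen with this pattern known, so the count is a description. Car3 counts here by its brighter probe set, with a gap of 0.14 to the next array. Its dimmer probe set was highest in db/m replicate 3 (5.78, against 5.06 in db/m replicate 2).

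Cidec showed it most clearly. It measured 4.03, 3.53 and 3.47 in db/db+TSF replicates 1 to 3, 3.49, 3.44 and 3.41 in db/db, and 3.34, 5.56 and 3.72 in db/m. In intensity units db/m replicate 2 stood at 46.3, against 9.11 and 12.2 in the other db/m arrays. Without that array all groups overlapped in a band between 3.34 and 4.03.

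Plin1, which guards the lipid droplet against lipases, had its group means in the same order over a narrower range. It measured 3.78, 3.75 and 3.62 in db/db+TSF, 3.33, 3.41 and 3.50 in db/db, and 3.55, 4.40 and 3.44 in db/m. The db/m replicate 2 array was again the highest, and the db/db+TSF arrays all lay above the db/db arrays.

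Lep measured 3.67, 3.88 and 3.62 in db/db+TSF, 3.50, 3.37 and 3.72 in db/db, and 3.32, 4.07 and 3.31 in db/m. The highest value belonged to db/m replicate 2 and the lowest values to the other db/m arrays. The db/db arrays lay inside the db/m range, whose upper end was db/m replicate 2 alone, and above the other db/m arrays (3.32 and 3.31). Leptin mRNA in fat is known to be raised in db/db mice. Whether these Lep values, which lie near the array medians, come from fat was not tested.

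Adipoq measured 2.84, 2.88 and 2.89 in db/db+TSF, 2.95, 2.73 and 2.88 in db/db, and 2.89, 3.24 and 3.07 in db/m. Its whole spread over the 9 arrays was 0.51 log2 units. The db/m replicate 2 array exceeded the next array by 0.16 for Adipoq, by 0.19 for Lep, by 0.62 for Plin1 and by 1.54 for Cidec. Ucp1 measured 2.93, 2.84 and 3.01 in db/db+TSF, 3.09, 2.98 and 2.68 in db/db, and 2.96, 3.20 and 3.06 in db/m, with overlap of all groups.

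Summed over the 5 dim members (Adipoq, Plin1, Cidec, Lep and Ucp1, grouped after their levels were seen), the intensity was 46.1 to 52.5 in db/db+TSF and 41.3 to 43.9 in db/db. It was 41.9, 98.8 and 45.8 in db/m replicates 1 to 3. The db/db+TSF arrays were all above the db/db arrays in this sum, but so were their array medians (10.61 to 11.2 in db/db+TSF, against 10.28 to 10.54 in db/db). Divided by the array median, the sum was 4.25 to 4.95 in db/db+TSF and 3.97 to 4.27 in db/db, which overlapped. It was 4, 9.17 and 4.44 in db/m, so db/m replicate 2 stood far above all others on either scale.

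The 3 members with the largest gap between db/m replicate 2 and the next array were Cidec (1.54), Plin1 (0.62) and Lep (0.19). Their promoters are given here for this reason. The Lep gap was small, at a level near the array medians. Sequences are from RefSeq, build GRCm38.p6, from 250 bases before to 50 bases after the annotated start, 5′ to 3′ on the gene's strand. RefSeq lists starts at 2 places for Cidec. Capitals mark matches to the motifs named below them.
Cidec, upstream start (chr6:113435711-113436010, minus strand): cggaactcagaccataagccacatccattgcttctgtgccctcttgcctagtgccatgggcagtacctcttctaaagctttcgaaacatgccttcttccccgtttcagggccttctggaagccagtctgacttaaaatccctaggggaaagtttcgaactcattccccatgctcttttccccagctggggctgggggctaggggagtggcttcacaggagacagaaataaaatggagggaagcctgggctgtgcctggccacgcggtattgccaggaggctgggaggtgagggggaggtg
Cidec, downstream start (chr6:113434715-113435014, minus strand): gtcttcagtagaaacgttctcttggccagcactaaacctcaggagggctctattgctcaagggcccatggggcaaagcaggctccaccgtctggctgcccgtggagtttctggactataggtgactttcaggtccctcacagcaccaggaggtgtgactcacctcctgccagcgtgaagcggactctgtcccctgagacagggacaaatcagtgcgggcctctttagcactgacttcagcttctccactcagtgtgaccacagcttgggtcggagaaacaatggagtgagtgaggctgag
Plin1 (chr7:79732727-79733026, minus strand): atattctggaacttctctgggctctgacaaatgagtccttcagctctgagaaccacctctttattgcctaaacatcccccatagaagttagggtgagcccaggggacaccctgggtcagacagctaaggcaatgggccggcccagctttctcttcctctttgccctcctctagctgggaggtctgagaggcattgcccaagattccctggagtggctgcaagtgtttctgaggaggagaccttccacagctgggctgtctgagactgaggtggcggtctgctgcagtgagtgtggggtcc
Lep (chr6:29059971-29060270, plus strand): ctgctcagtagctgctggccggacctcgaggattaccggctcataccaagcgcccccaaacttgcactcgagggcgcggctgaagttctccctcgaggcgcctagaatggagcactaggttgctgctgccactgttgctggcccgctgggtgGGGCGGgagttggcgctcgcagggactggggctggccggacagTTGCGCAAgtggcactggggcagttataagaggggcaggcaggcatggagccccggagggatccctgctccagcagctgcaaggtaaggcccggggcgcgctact

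The motifs searched on both strands were the TATA box TATAAA, the CCAAT box CCAAT, the palindrome TTGCGCAA bound by C/EBP factors, the nuclear receptor half-site AGGTCA and the GC box GGGCGG. None of these motifs contains another. The Lep promoter held a C/EBP palindrome that begins 55 bases before the start, a sequence present in 0.183% of the 32851 mouse promoters of this length. It also held a GC box, present in 35.7% of them. The Cidec and Plin1 windows held 0 matches to these letters, which says nothing about other sequences or places.

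Among the other promoters in the table, that of Adipoq held 3 CCAAT matches (a motif in 37.4% of promoters) and that of Ucp1 held 1 nuclear receptor half-site (16.3%). RefSeq promoters were listed for 6 of the 8 genes, and none is shown for Fabp4 and Car3. By annotation on the same build Cidec and Lep lie on chromosome 6, Plin1 on 7, Adipoq on 16, Ucp1 on 8 and Fabp4 and Car3 on 3.

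A wider list of 34 adipocyte genes held 32 that were tested. The array of db/m replicate 2 was the highest for 9 of these 32 (28.1%). Retn, which encodes the adipocyte hormone resistin, measured 5.60 in db/m replicate 2 and 2.95 to 3.49 in the other 8 arrays. Of all 1834 genes that were highest in db/m replicate 2, Retn had the largest gap to the next array (2.11), and Cidec had the second largest (1.54). Orm1, an acute phase protein gene also expressed in fat, had rank 8 (gap 0.81), at 4.16 in that array, and Plin1 had rank 16. The other members highest there ranked far lower: Lep 185, Adipoq 253, Car3 315 and Ucp1 500.

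**Figure D2:**
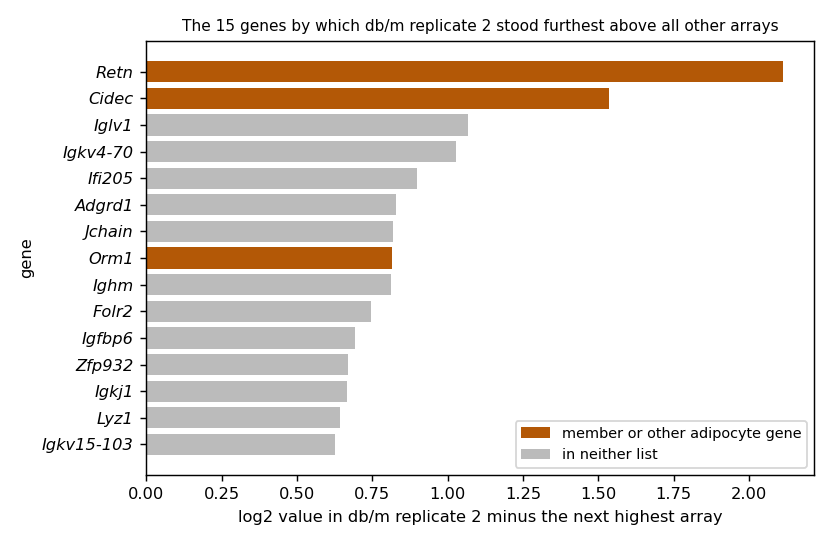
The 15 genes, of 17740 tested, by which the db/m replicate 2 array stood furthest above the next highest array (horizontal axis, log2 units), with genes of the adipocyte lists in orange and the others in grey. Retn (2.11) and Cidec (1.54) lead, followed by immunoglobulin genes such as Iglv1 (1.07).

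Some genes of other cell types were high in the same array. The immunoglobulin heavy chain gene Ighm measured 10.24 there and 7.17 to 9.43 elsewhere, and Jchain, which joins antibody units, measured 5.87 there and 3.61 to 5.05 elsewhere. The summed intensity of 10 lymphocyte markers was 244 to 691 in db/db+TSF, 393 to 807 in db/db, and 474, 1394 and 572 in db/m replicates 1 to 3. Ighm carried this sum: the other 8 markers besides Ighm and Jchain summed to 85.1 to 99.6 in db/db+TSF, 91.3 to 96.5 in db/db, and 126, 127 and 124 in db/m. Of the 10 markers 4 were highest in db/m replicate 2 and 5 in db/m replicate 3. The B cell gene Cd79b had its highest value of all arrays in db/m replicate 2 (4.94), and the dimmer Cd79a had its lowest (3.15, up to 3.69 elsewhere). The connective tissue gene Dpt (dermatopontin) was 6.13 there and 4.05 to 5.59 elsewhere. The sum of 14 fibroblast and capsule markers was 894 to 1066 in db/db+TSF, 1131 to 1204 in db/db, and 1201, 1340 and 1011 in db/m. Of the 14, 4 were highest in db/m replicate 2 and 4 in db/db replicate 3. None of these markers was listed at 0. Their part in the values of the adipocyte genes was not tested.

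Some other markers were not highest in that array. Of 9 mesothelial markers tested, 0 were highest there and 5 were highest in db/db replicate 3. Msln was 3.60 in db/m replicate 2, near the array medians and inside the range of the other arrays (3.34 to 3.62). Upk1b (4.33) and Upk3b (4.74) were above the other db/m arrays (3.31 and 3.32, 4.22 and 4.15). Both were higher still in db/db replicate 3 (4.58 and 4.96). The sum of 15 endothelial markers was 3979 in db/m replicate 2 against 3899 to 4138 over all arrays. Trarg1, a regulator of glucose transport in fat, measured 4.92 in db/m replicate 2 and 4.98 in db/db+TSF replicate 2. Genes of the wider list with the highest levels were Cyp2e1, Pck1 and Gpd1, enzymes that kidney tubules also express, at 10.11 to 11.63 on average.

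**Figure D3:**
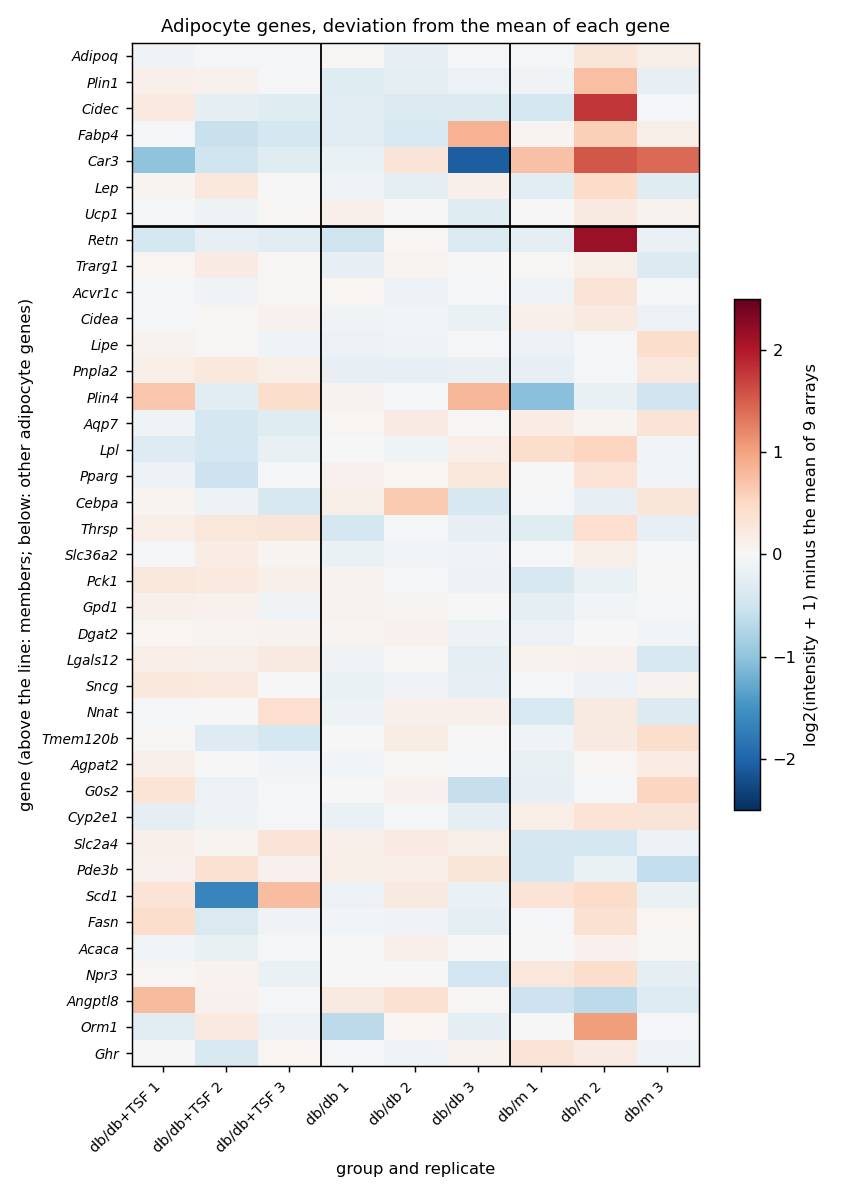
Deviation of each gene's log2(intensity + 1) from its mean over 9 arrays, for the 7 members above the line and the 32 other adipocyte genes tested below it, with the db/db+TSF, db/db and db/m arrays from left to right. The db/m replicate 2 column is red for Cidec, Retn and Orm1, while Car3 is blue in db/db replicate 3 (5.83) and red in all db/m arrays.

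The saline-treated db/db group was set against lean db/m controls, for which the labels give no treatment. Genotype, obesity, diabetes and any difference in dosing cannot be told apart in this comparison. All 7 members had lower means in db/db, and 0 of 7 passed the threshold of an adjusted p of 0.05 in the limma fit over 17740 genes. Over all genes 1.05% passed, 0.592% upward and 0.462% downward. An unadjusted p under 0.05 was found for 1 of the 7 members (Car3) and for 2474 of the 17740 genes. The median difference of the members was -0.22, against 0.01 for all genes tested.

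Car3 differed most. It measured 7.73, 8.21 and 5.83 in db/db and 8.64, 9.45 and 9.30 in db/m, a log2 difference of -1.87 (SE 0.49, 95% interval -2.94 to -0.80, limma adjusted p = 0.102). On this scale it was 3.66-fold lower in db/db. The groups did not overlap, which held for the lower direction in 8.28% of all genes and for the higher direction in 10.4%. The db/db replicate 3 array was the lowest of all 9, at an intensity of 55.8 against 211 and 296 in the other db/db arrays.

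For the lipid droplet genes the db/m mean carried the single high array. Cidec averaged 3.44 ± 0.04 in db/db and 4.21 ± 1.19 in db/m (SD, n = 3 each; difference -0.76, limma adjusted p = 0.470), and Plin1 averaged 3.41 ± 0.08 in db/db and 3.79 ± 0.52 in db/m (difference -0.38, limma adjusted p = 0.434). Without db/m replicate 2 the difference was -0.08 for Cidec and -0.08 for Plin1, and the median over the members was -0.08. The Car3 difference was -1.71 without that array (adjusted p = 0.207).

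The hormone genes did not pass either. Adipoq differed by -0.22 (95% interval -0.45 to 0.02, limma adjusted p = 0.391) and Lep by -0.03 (-0.45 to 0.38, adjusted p = 0.952). Without db/m replicate 2 the Lep difference turned to 0.22 (adjusted p = 0.458). Ucp1 differed by -0.16 (limma adjusted p = 0.593).

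Fabp4 measured 8.65, 8.57 and 9.81 in db/db and 9.01, 9.55 and 9.09 in db/m (difference -0.20, limma adjusted p = 0.795). Its highest value of all 9 arrays was in db/db replicate 3, the array in which Car3 and Ucp1 were lowest. In that array 21 genes lay at least 1 log2 unit above all other arrays, more than in any other array (0 to 9), among them the neutrophil gene S100a8 at 6.10. The sum of 15 endothelial markers was 4033 to 4138 in db/db and 3979 to 4049 in db/m, and the sum of 12 macrophage markers was 627 to 723 in db/db and 744 to 776 in db/m. Their part in the Fabp4 values was not tested.

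**Figure D4:**
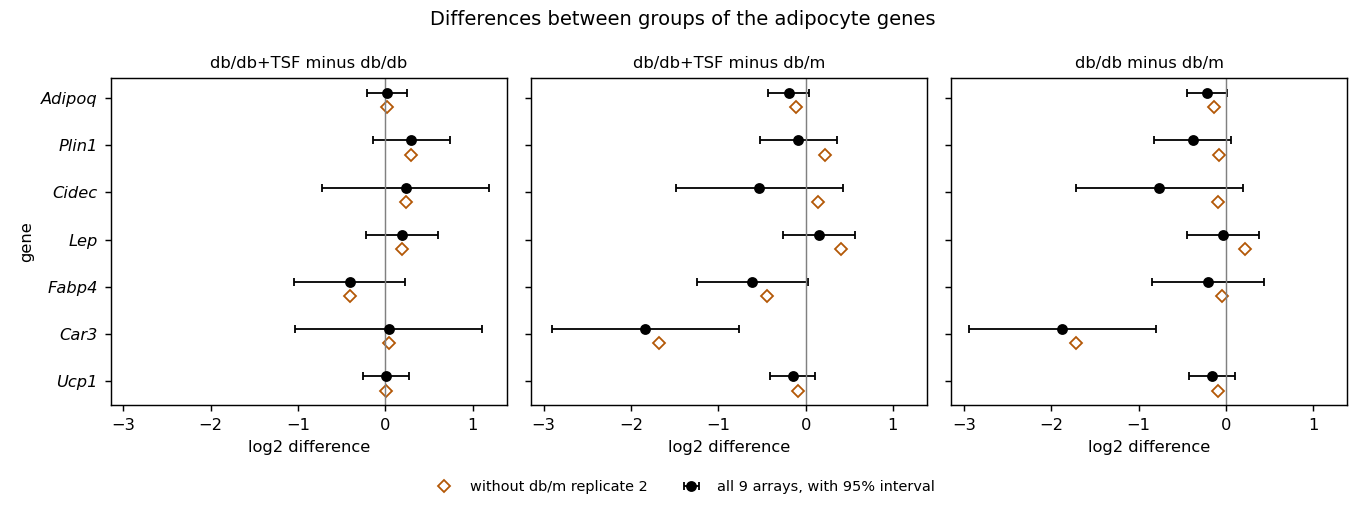
Log2 differences between groups for the 7 members in 3 comparisons, with all 9 arrays (black, bar for the 95% interval) and without db/m replicate 2 (orange diamonds). The Car3 intervals of both comparisons with db/m lie below 0, and the Cidec difference of -0.76 for db/db minus db/m shrinks to -0.08 without that array.

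The effect of the formula within the diabetic genotype was read from db/db+TSF minus db/db. None of the 7 members passed in the limma fit and 0 had an unadjusted p under 0.05. Of all 17740 genes 0% passed, with 2079 at an unadjusted p under 0.05. The median difference of the members was 0.04, against -0.02 for all genes.

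Plin1 had the smallest p of the members, with 3.71 ± 0.08 in db/db+TSF and 3.41 ± 0.08 in db/db (SD, n = 3 each; difference 0.30, 95% interval -0.14 to 0.74, limma adjusted p = 0.586). Its groups did not overlap, which held for the higher direction in 7.81% of all genes, and for the lower in 12.3%. Cidec differed by 0.23 (-0.72 to 1.19), Lep by 0.19 (-0.22 to 0.60) and Fabp4 by -0.41 (-1.04 to 0.23). Car3 averaged 7.29 ± 0.36 in db/db+TSF and 7.26 ± 1.26 in db/db (difference 0.04, 95% interval -1.03 to 1.11). The Car3 interval spans more than 1 log2 unit in either direction. The Car3 difference was -0.68 without db/db replicate 3.

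The third contrast, db/db+TSF minus db/m, shares its arrays with the comparisons above. Car3 measured 6.89, 7.40 and 7.59 in db/db+TSF and 8.64, 9.45 and 9.30 in db/m, a difference of -1.83 (SE 0.49, 95% interval -2.90 to -0.77, limma adjusted p = 0.0715), or 3.57-fold lower. Fabp4 measured 8.91, 8.39 and 8.51 in db/db+TSF and 9.01, 9.55 and 9.09 in db/m (difference -0.61, limma adjusted p = 0.315). Neither gene overlapped between the groups, as was the case in the lower direction for 12.4% of all genes and in the higher for 9.76%. In total 0 of the 7 members passed, where 3.13% of all genes passed (1.22% higher and 1.92% lower). The unadjusted p was under 0.05 for 1 of the 7 members and for 3050 of all 17740 genes. The median difference of the members was -0.20, against -2e-04 for all genes, and it was -0.085 without db/m replicate 2.

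In this contrast Car3 passed the threshold in 3 of 20 alternative fits. Without db/db replicate 3, an array of neither group that enters the shared estimate of the spread, the adjusted p was 0.00298, without db/db replicate 2 it was 0.0472, and with only the 2 groups in the fit it was 0.00571. Without db/m replicate 2 it was 0.159. The other differences were -0.53 for Cidec, -0.08 for Plin1, 0.15 for Lep, -0.20 for Adipoq and -0.15 for Ucp1. Cidec and Plin1 turned to 0.15 and 0.22 without db/m replicate 2.

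Car3 lay lower in all 6 arrays of db/db+TSF and db/db than in all 3 db/m arrays. A contrast of the mean of both db/db groups with db/m, added after these values were seen, gave -1.85 (SE 0.42, limma adjusted p = 0.0412), where 2.94% of all genes passed (1.41% higher and 1.53% lower). Groups without overlap in this contrast made up 4.32% of all genes in the lower and 4.23% in the higher direction. This call was lost in 10 of 19 alternative fits, among them those without any single db/m array (adjusted p = 0.0743, 0.123 and 0.139 without replicates 1, 2 and 3). The other 6 members did not pass in it.

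Car3 was measured by a second, dimmer probe set. It gave 3.44, 3.74 and 4.05 in db/db+TSF, 3.99, 4.09 and 2.88 in db/db, and 4.08, 5.06 and 5.78 in db/m. The order of the group means was kept, with differences of -1.32 for db/db minus db/m and -1.23 for db/db+TSF minus db/m. Here db/db replicate 2 (4.09) lay just above db/m replicate 1 (4.08), so these groups overlapped, and db/db replicate 3 was again the lowest array. The highest array was db/m replicate 3, whereas for the brighter probe set it was db/m replicate 2.

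**Figure D5:**
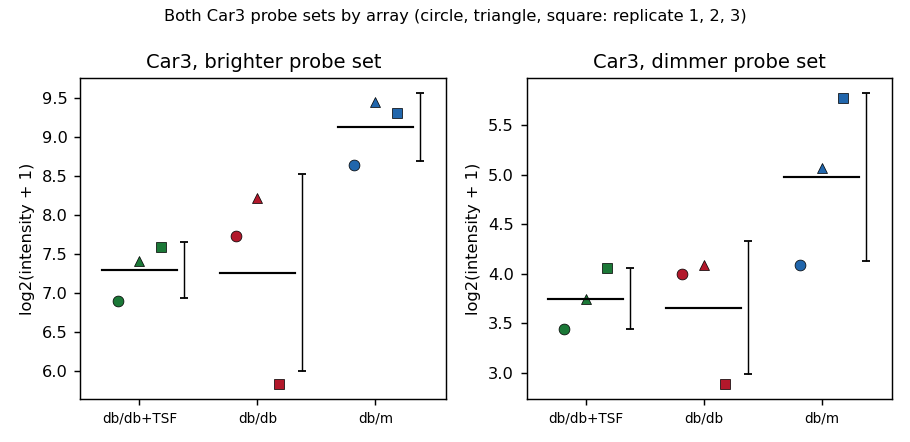
Log2(intensity + 1) of the brighter and the dimmer probe set of Car3 in each array, with the groups db/db+TSF, db/db and db/m from left to right, group means as lines and the SD (n = 3) as bars. In both panels the db/m mean (9.13 and 4.97) is the highest and db/db replicate 3 is the lowest point (5.83 and 2.88).

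From array to array Car3 ran unlike the lipid droplet genes and Lep. Its db/m replicate 1 and 3 values (8.64 and 9.30) were above all db/db+TSF and db/db arrays, whereas Cidec, Plin1 and Lep in db/m replicate 1 (3.34, 3.55 and 3.32) were not. As a description over 9 arrays, Pearson's r of Car3 was 0.83 with Ucp1, 0.61 with Adipoq, 0.47 with Cidec, 0.31 with Plin1, -0.06 with Fabp4 and -0.17 with Lep. The dim Ucp1 thus ran most like it among the members, over a range of 0.53 log2 units. Without db/m replicate 2 these r were 0.77, 0.39, -0.06, -0.35, -0.38 and -0.78 in the same order of genes, so the signs for Cidec and Plin1 rest on that array. Skeletal muscle, which also makes Car3, had a marker sum (12 probe sets) of 283 to 301 in db/db+TSF, 250 to 269 in db/db and 220 to 244 in db/m. Pvalb, which the distal tubule also makes, was the largest single part of it. Without Pvalb the sums overlapped, at 112 to 124 in db/db+TSF, 105 to 112 in db/db and 103 to 115 in db/m. The part of muscle RNA in the Car3 values was not tested.

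Genes whose arrays ran most like Car3 were named after the values were seen. They were Cyp4b1, a fatty acid and xenobiotic hydroxylase (r = 0.98 over 9 arrays), Fbxo46, Bco2, Cndp1, Fcamr, Ugt2b38, Hapln1, Acp5, Eci3 and Cxcr3 (r at least 0.93). None of these 10 is in the adipocyte lists used here. For Cidec the 10 most alike genes included 2 of the lists, Retn (r = 0.92) and Plin1 (r = 0.91). Without db/m replicate 2, r with Cidec was -0.31 for Retn and 0.48 for Plin1.

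The 10 genes most like Adipoq over the 9 arrays were Slco1a4, Tunar, Nutm1, Sdr9c7, Odc1, Gimap1, Mir194-2, Jakmip2, Emilin3 and Derl1, with Pearson's r from 0.90 to 0.96. None of them is in the adipocyte lists. Among the members r with Adipoq was highest for Cidec (0.78, rank 95) and lowest for Lep (0.43). This order rests on db/m replicate 2: without it r was 0.16 for Cidec and -0.21 for Lep, and Car3 (0.39) was the highest. With 9 arrays and an Adipoq range of 0.51, such values describe these arrays only.

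Pde3b and Slc2a4, genes of insulin action, had the smallest p of the wider adipocyte list in both comparisons with db/m. In db/db against db/m 0 of 32 passed in limma, where 1.05% of all genes passed (median difference of the list -0.11). An unadjusted p under 0.05 was found for 6 of the 32 and for 2474 of all 17740 genes. The phosphodiesterase gene Pde3b, which curbs lipolysis after insulin, was the nearest, at 6.53 in db/db and 5.93 in db/m (difference 0.60, adjusted p = 0.0503). Slc2a4, the insulin-regulated glucose transporter GLUT4, differed by 0.50 (adjusted p = 0.0564) and Cyp2e1 by -0.41 (adjusted p = 0.0776).

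In db/db+TSF against db/m 2 of the 32 rose and 1 fell, or 9.38% of the list, where 3.13% of all genes passed (1.22% higher and 1.92% lower); the median difference was -0.04. Pde3b measured 6.44, 6.71 and 6.44 in db/db+TSF and 5.89, 6.17 and 5.71 in db/m (difference 0.60, adjusted p = 0.0298), and Slc2a4 averaged 6.87 in db/db+TSF and 6.36 in db/m (0.51, adjusted p = 0.0302). Aqp7, a glycerol channel of adipocytes and proximal tubule, averaged 8.40 in db/db+TSF and 8.87 in db/m (-0.48, adjusted p = 0.0421). The count of 3 was 0 without db/m replicate 1 or db/db+TSF replicate 2, and 1 without db/m replicate 2, db/db+TSF replicate 1 or db/db+TSF replicate 3. In the added contrast of both db/db groups with db/m, 4 of the 32 passed (12.5%, against 2.94% of all genes). These were Pde3b (0.60), Slc2a4 (0.50) and the secreted lipase regulator Angptl8 (0.75), which were higher, and Cyp2e1 (-0.41), which was lower.

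For the formula, 0 of the 32 passed in limma and 6 had an unadjusted p under 0.05, where 2079 of all 17740 genes did. Those of smallest p were Aqp7 (-0.37), the lipase gene Pnpla2 (0.38) and Sncg (0.32), with adjusted p from 0.284 to 0.296.

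Of 12 genes of brown and beige fat that were tested, 0 passed in any of the 3 comparisons in limma, and 1 in each had an unadjusted p under 0.05. Of all 17740 genes, 2474 had such a p in db/db minus db/m, 2079 in db/db+TSF minus db/db and 3050 in db/db+TSF minus db/m. Cidea, a lipid droplet gene of brown fat, lay between 3.03 and 3.42 in all arrays, and Cox8b, a brown fat subunit of cytochrome oxidase, between 2.49 and 3.24. Otop1 differed by 0.34 under the formula (db/db+TSF minus db/db, adjusted p = 0.338), and Prdm16 by 0.16 in db/db+TSF against db/m (adjusted p = 0.379). The brightest of the list were Slc27a2, Pank1 and Ppargc1a, genes of fatty acid and coenzyme A metabolism that tubules also express. Pank1 differed by -0.55 in db/db against db/m (adjusted p = 0.103). In the added contrast of both db/db groups with db/m, 1 of the 12 passed (8.33%, against 2.94% of all genes). This was Pank1, which was lower (-0.54, limma adjusted p = 0.0442).

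Markers of other cell types moved in the comparisons with db/m, and their part in the values of the adipocyte genes was not tested. Of all genes 0.592% passed as higher and 0.462% as lower in db/db minus db/m. In that comparison Krt19 (0.49) of 9 mesothelial and Cyp17a1 (0.97) of 7 adrenal cortex markers rose, and Cd3e (-0.78) of 10 lymphocyte markers fell. Cyp17a1 went against most of its list, since 5 of the 7 adrenal cortex markers had lower means in db/db (median difference -0.07). In db/db+TSF against db/m, 1.22% of all genes passed as higher and 1.92% as lower. There 4 of 11 macrophage markers fell (Adgre1, Csf1r, Cd68 and Tyrobp, -0.42 to -0.83), as did Cd3e (-0.58), Cd3g (-0.92) and the proximal tubule gene Kap (-1.45). Kap measured 10.65, 9.34 and 10.92 in db/db+TSF, and 8 of the 12 proximal tubule markers had higher means there than in db/m. Pvalb (0.54), listed for muscle and also a distal tubule gene, rose. The defining adrenal enzymes Cyp11b1 and Cyp11b2 were too dim to be tested. No member of the endothelial, fibroblast, medulla or nerve lists passed in any of the 3 comparisons.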

How the data were processed

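Kidney cortex RNA of 9 mouse samples in 3 groups was measured on Affymetrix arrays. The deposited intensity values are linear, 1 per probe set and array; Affymetrix Expression Console and Transcriptome Analysis Console are named per the submitters' processing notes, with settings not given in the sources used here. Of 41345 probe sets, 23521 had 1 gene symbol in the platform annotation, 1814 several and 16010 none. Only those with 1 symbol were used, and the brightest stood for its gene. From the authors' values log2(value + 1) was taken, so differences of dim genes are understated. Genes whose mean fell below the 30th percentile over the probe sets (2.65) were left out, leaving 17740. Limma version 3.58.1 in R version 4.3.3 was fitted to all 9 arrays with a mean per group, with eBayes, and p-values were adjusted by Benjamini-Hochberg over all genes tested. The fit was tested on simulated data. The number of arrays limits the precision, and p-values set the group differences against the spread between these arrays. No arrays were copies: pairs shared 3 to 70 identical values.

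The members, gene lists and tests were chosen with earlier results of these data known. Named genes were all members; of the adipocyte and brown fat lists those past the threshold, otherwise the 3 of smallest p per comparison, and the 3 brightest; those past the threshold in the other lists; and the 10 genes most correlated with Adipoq, skipping clone and model numbers. Alternatives changed the pseudocount, filter, probe set, scaling, variance model, array weights and the arrays in the fit, and added the replicate number as a block. Deviations of same-numbered arrays from their group means correlated at -0.08 to 0.15, and the main fit did not pair arrays by number. These correlations cannot settle whether same-numbered arrays were handled together.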

Additional observations from a re-analysis of the deposited data

How the results depend on the processing

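With 3 arrays per group the spread of single genes limited the calls (Cd68 passed at -0.42, Car3 did not at -1.83), and levels near the array medians cannot be told from background. Across all settings tried the members called stayed at 0 of 7 for db/db minus db/m and for db/db+TSF minus db/db. For db/db+TSF minus db/m, 1 member (Car3, -1.83) passed with only the 2 groups compared, and 0 to 1 without single arrays (Car3 -2.08 to -1.63). The cause of these and the following changes was not tested.

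The median of the members was -0.42 to -0.085 (db/db minus db/m) and -0.28 to -0.085 (db/db+TSF minus db/m) without single arrays, and -0.53 over 5 members for db/db+TSF minus db/m with a filter at the 50th percentile. Calls over all genes without single arrays ranged from 72 to 194 for db/db minus db/m (187 with all) and from 213 to 563 for db/db+TSF minus db/m (556 with all).

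Of the 32 other adipocyte genes, none passed for db/db minus db/m with the settings of the report. The count was 3 with pseudocount 8 or an intensity trend with robust variance, 2 with the stricter filter, and 1 with the mean of probe sets, median scaling, quantile normalization, array weights or only the 2 groups. It was 0 to 1 without single arrays. For db/db+TSF minus db/m the count of 3 became 5 with pseudocount 8 or quantile normalization, 6 with the stricter filter or array weights, 7 with trend and robust variance, 0 with only the 2 groups, and 0 to 3 without single arrays.

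The contrast of both db/db groups with db/m, chosen after seeing the data, called 0 members under trend and robust variance (Car3 -1.85, limma adjusted p = 0.150) and array weights (-1.72, 0.0551), and 0 to 1 without single arrays (-2.10 to -1.50). The dimmer probe set gave -1.27 (0.0794).

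Sign changes never passed the threshold. For db/db+TSF minus db/db, Adipoq was -0.039 with median scaling, -0.019 with quantile normalization and -0.041 to 0.070 without single arrays. Car3 was -0.022 with median scaling, -0.047 with array weights and -0.68 to 0.52 without single arrays. Ucp1 was -0.049, -0.033 and -0.0035 with median scaling, quantile normalization and array weights, and -0.11 to 0.10 without single arrays. For db/db minus db/m without single arrays, Lep ran from -0.16 to 0.22 and Fabp4 from -0.61 to 0.018. For db/db+TSF minus db/m, Plin1 ran from -0.26 to 0.22 and Cidec from -0.97 to 0.15. For both groups, Lep was -0.048 with array weights and -0.067 to 0.31 without single arrays, Plin1 -0.41 to 0.071 and Cidec -1.08 to 0.031.

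With the replicate number as a block, 0 members passed in the 3 planned comparisons, Car3 had adjusted p = 0.116 for db/db minus db/m, and calls over all genes were 137 and 434 in the comparisons with db/m. The block changed no call of a member. Of the other adipocyte genes 2 passed for db/db+TSF minus db/m.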
